A study of Mus musculus with 12 samples.

Results

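What the loss of PGC-1alpha adds to the loss of PGC-1beta in skeletal muscle was read by setting the double knockout against the beta knockout, each measured as a ratio to the same kind of floxed control RNA. The comparison rests on 5 of the 12 arrays of the series, the 3 titled as double knockout against floxed control and the first and second of the 3 titled as beta knockout against floxed control. They were chosen by their titles, and the third beta array was left out because the authors' own means leave it out. Values with that array kept are given beside the main results as a check.

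The tissue was gastrocnemius, the large calf muscle, of male mice aged 12 weeks whose strain is given as C57BL6/J x sv129. Double knockout mice were PGC-1alpha -/- in the whole body and PGC-1beta f/f with Mlc1fCre, a Cre recombinase driven from the myosin light chain 1f locus, so that PGC-1beta is lost in muscle fibres and kept in other cells. Beta knockout mice were PGC-1beta f/f with Mlc1fCre and an intact PGC-1alpha gene, and controls were PGC-1beta f/f without Cre. All 3 genotypes thus carried the floxed Ppargc1b alleles. On each array the knockout RNA carried the dye Cy5 and the control RNA Cy3, with no dye swap, and the labels do not say whether the arrays came from separate mice, so p-values measure the spread between arrays. A further 3 arrays of PGC-1alpha -/- mice against floxed control and 3 of the double knockout directly against PGC-1alpha -/- are called the alpha and direct arrays, and served the estimate of the spread. All values below are log2 ratios of knockout to control, centred on the median gene of each array, and a difference is the double mean minus the beta mean. In whole muscle, fewer cells of a type and less RNA per cell cannot be told apart.

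PGC-1alpha and PGC-1beta are coactivators. They do not bind DNA themselves but are recruited by transcription factors such as the estrogen-related receptors, NRF1 and GABP, and raise the transcription of nuclear genes for the respiratory chain, the citric acid cycle and fatty acid oxidation. PGC-1alpha is induced in muscle by exercise and is linked to oxidative fibres. The pair share many targets, so that either can be present when the other is lost.

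The arrays differed in ways their titles do not give. Ratios were undefined at 12.5%, 11.8% and 27.6% of probes on beta 1 to 3 and at 15.1%, 13.3% and 21.5% on double 1 to 3. Over all probes, beta 3 correlated with beta 1 at -0.44 and with double 1 at -0.39 but with double 3 at 0.47, and double 3 correlated with beta 1 at -0.31. The 3 double arrays correlated with one another at 0.095, -0.20 and 0.18, and beta 1 with beta 2 at 0.34. Alpha arrays did so at 0.44 to 0.55 and direct arrays at 0.41 to 0.47. The spread behind the p-values is pooled over these groups, so it need not hold for the double arrays. Across titles, the pairs alpha-beta, alpha-double and beta-double correlated at 0.62, 0.51 and 0.48 for the arrays numbered 1. The same pairs gave 0.39, 0.15 and 0.11 for those numbered 2, and -0.22, -0.11 and 0.47 for those numbered 3. Because arrays of 1 dye orientation against the same kind of reference ran against each other, the direction of beta 3 and of double 3 is not settled, and values with their signs turned are given too. The labels of the dye channels name another genotype than the title on beta 1, beta 3, double 1 and double 2: by those labels, the arrays numbered 1, 2 and 3 of each title carry alpha, beta and double knockout RNA. The means in the authors' deposited tables equalled the title groups for 100% of probes once beta 3 was left out. The channel groups equalled them for at most 2.47%. The match to titles shows how the authors grouped the arrays and does not settle which RNA each carried.

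The transcripts of the targeted genes were compared first. Ppargc1a, which encodes PGC-1alpha, stood at -0.80, -1.93 and -1.06 on double 1 to 3 and at -0.09 and -0.46 on beta 1 and 2. The 3 double arrays lay below both beta arrays, as they also did with beta 3 at -0.49, but the difference of -0.98 (SE 0.44) did not pass limma's test after adjustment over all genes (adjusted p = 0.665). On the alpha arrays it stood at -1.61, -2.56 and -1.36. Ppargc1b, which encodes PGC-1beta and is deleted in both groups, stood at 0.43, 0.33 and 0.28 on the double arrays and at 0.60 and 0.92 on the beta arrays. By the mean of its 3 probes it was above the median gene on all 5 arrays, so that this mean was not low in muscle titled as its own knockout. The probes disagreed: 1 of them stood at 0.17 and -0.67 on beta 1 and 2 and at -0.50, 0.36 and -0.13 on the double arrays, and the 3 gave differences of 0.16, -0.63 and -0.70. The sources used here do not place these probes inside or outside the deleted exons, and the absence of PGC-1beta is therefore taken from the titles.

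Among 13243 genes tested, 2 passed the threshold of an adjusted p of 0.05, which is 0.0151% of them. They were Chchd10, lower on the double arrays (0.00755% of genes were called lower), and Pdzd3, higher (0.00755% called higher). Without centring on the median gene, 2 genes were called higher, Pdzd3 among them, and 0 lower. Without adjustment, 582 genes (4.39%) were lower and 414 (3.13%) higher at a p under 0.05.

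Chchd10 encodes a small protein of the mitochondrial intermembrane space that associates with the cristae. It stood at -3.30, -2.89 and -2.81 on the double arrays, a mean of -3.00 ± 0.26 (SD, n = 3), against 0.11 and 0.44 on the beta arrays, a mean of 0.28 ± 0.24 (SD, n = 2). The double arrays lay far below both beta arrays and also below beta 3, at -1.77. Its difference of -3.28 (SE 0.35, limma adjusted p = 0.0141) is a level 9.68-fold lower in the double than in the beta knockout. On the alpha arrays it was at -0.10, -0.02 and 0.54, close to the control, and on the direct arrays it was at -2.05, -1.85 and -1.32. The route through those arrays, which adds the direct to the alpha mean before the beta mean is taken away, gave a difference of -1.88. The authors' deposited table gives mean ratios to floxed control of 1.2 for the alpha, 1.2 for the beta and 0.12 for the double knockout. The call rests on 1 probe, neither dim nor undefined on any of the 11 arrays, and was lost in 12 of the 30 alternatives. With an array left out or added, the adjusted p was 0.282 without beta 1, 0.356 without beta 2, 0.0811 without double 2, 0.0632 without double 3 and 0.332 with beta 3 kept, where the difference was -2.59. With the sign of double 3 turned the difference was -1.40 and the adjusted p 0.989, and with that of beta 3 turned they were -3.77 and 0.0127. The call was also lost without centring (adjusted p = 0.156), after quantile normalization (0.0566), from the 5 arrays alone (0.455), in a fit of genotype effects that includes the direct arrays (0.0576), by the route through the alpha arrays (0.437) and by channel label (0.897). Over all alternatives the adjusted p ran from 0.0021 to 0.989 and the difference from -3.77 to -0.52, the latter with arrays grouped by channel label.

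Pdzd3, a scaffold protein with PDZ domains known from kidney and gut, stood at 3.06, 2.75 and 2.70 on the double arrays and at -2.45 and -1.56 on the beta arrays. The difference was 4.84 (SE 0.53, limma adjusted p = 0.0141). Beta 3 stood at 3.55, above every double array, and with it the difference was 2.99 and the adjusted p 0.697. The gene has 1 probe, which was dim or undefined on 2 arrays, and its call was lost in 13 of the 28 alternatives that could test it (adjusted p from 0.0021 to 0.989).

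**Figure D1:**
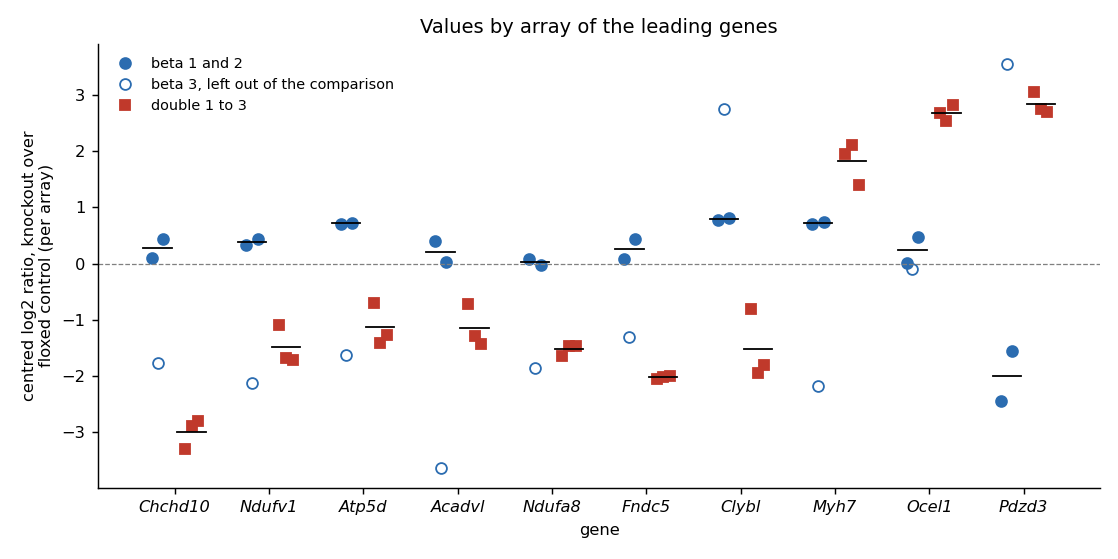
Centred log2 ratio of knockout to floxed control (vertical axis) of 10 genes on each array. Filled circles are beta 1 and 2, open circles beta 3, squares the double arrays, and bars the means of the filled points. Chchd10 lies at -2.81 or lower on all 3 double arrays and above 0 on beta 1 and 2, while beta 3 falls among or beyond the double values for several genes.

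The promoters of Chchd10 and of 2 further genes are shown because these genes lay lower in the double knockout and differ in the letters of coactivator-linked motifs they hold. Ndufa8 has the pattern most like that of Chchd10, and Got1 heads the list of the citric acid cycle and pyruvate entry by its difference. The sequences are from RefSeq on GRCm38.p6, run from 250 bases before to 50 bases after the gene start, and carry in capitals any match to the core motifs searched. These were AAGGTCA for the estrogen-related receptors, GCGCATGC for NRF1, CCGGAAG for GABP and AAGATGGCG for YY1, on either strand; none contains another.
Chchd10, chr10:75932880-75933179, plus strand, no match: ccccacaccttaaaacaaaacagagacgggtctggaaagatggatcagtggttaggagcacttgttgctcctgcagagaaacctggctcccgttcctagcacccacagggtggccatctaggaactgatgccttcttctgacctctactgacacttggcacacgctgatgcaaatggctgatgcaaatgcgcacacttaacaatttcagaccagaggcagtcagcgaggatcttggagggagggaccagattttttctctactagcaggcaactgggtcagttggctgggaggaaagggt
Ndufa8, chr2:36049289-36049588, minus strand, NRF1 letters on the opposite strand, starting at -8 from the gene start: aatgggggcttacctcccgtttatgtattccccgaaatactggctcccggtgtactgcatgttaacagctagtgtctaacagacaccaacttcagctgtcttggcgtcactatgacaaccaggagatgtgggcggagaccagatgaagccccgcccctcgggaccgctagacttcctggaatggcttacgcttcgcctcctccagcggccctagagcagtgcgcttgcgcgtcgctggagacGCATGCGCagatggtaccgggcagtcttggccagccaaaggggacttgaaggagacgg
Got1, chr19:43524556-43524855, minus strand, estrogen-related receptor letters starting at -245 from the gene start: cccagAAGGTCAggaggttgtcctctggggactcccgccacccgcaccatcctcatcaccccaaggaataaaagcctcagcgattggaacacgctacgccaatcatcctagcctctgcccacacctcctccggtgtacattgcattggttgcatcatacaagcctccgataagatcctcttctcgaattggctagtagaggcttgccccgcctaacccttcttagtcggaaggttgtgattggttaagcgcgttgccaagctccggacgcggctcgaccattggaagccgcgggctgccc
Of all 32851 RefSeq promoters of this length, 4.72% held the estrogen-related receptor letters, 2.71% those of NRF1, 8.86% those of GABP and 1.40% those of YY1. Among the 75 promoters of 70 oxidative phosphorylation genes the shares were 12%, 14.7%, 25.3% and 10.7%. The same search found no match in the promoters of Ndufv1, Atp5d, Acadvl and Fndc5, and YY1 letters in those of Clybl and Ndufa9. A match describes these letters only, and no binding was measured.

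The genes with the next smallest p-values did not pass the threshold and are given as values. Fndc5, the precursor of the secreted peptide irisin, stood at -2.05, -2.03 and -2.00 on the double arrays and at 0.09 and 0.44 on the beta arrays. By the mean of its 2 probes the double values lay below every beta array, beta 3 at -1.31 included. The probes ran in opposite order on double 1 to 3, at -3.03, -2.14 and -1.78 and at -1.07, -1.92 and -2.23. For the first of them beta 3, at -1.89, lay below double 3. On the alpha arrays Fndc5 stood at -1.21, -0.62 and -0.85. The difference was -2.29 (SE 0.32, limma adjusted p = 0.0552, from 0.0033 to 1 over the alternatives), with -2.05 and -2.53 for its 2 probes. Clybl, a mitochondrial enzyme of citramalyl-CoA breakdown, stood at -0.81, -1.95 and -1.80 against 0.77 and 0.82, although beta 3 stood at 2.75. Its difference was -2.32 (adjusted p = 0.0723). Ndufa8, a complex I subunit, stood at -1.65, -1.47 and -1.46 against 0.08 and -0.02, and its 2 probes gave -1.55 and -1.57. The difference of -1.56 had an adjusted p of 0.102. Beta 3 stood at -1.87, below every double array, and with it the difference was -0.93. Differences of the remaining genes named by the rule for low values were -2.16 for Mcrip2, -2.57 for the fucose mutarotase gene Fuom and -3.12 for the cone opsin gene Opn1mw. Mcrip2 stood at -2.91 on beta 3, below its double values of -1.17, -1.44 and -1.57, and with that array its difference was -0.93.

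On the side of higher values, Ocel1 stood at 2.69, 2.55 and 2.83 on the double arrays and at 0.01 and 0.48 on the beta arrays, with a difference of 2.44 (SE 0.32, limma adjusted p = 0.0552). It was as high on the alpha arrays, at 2.75, 2.28 and 2.09. The 3 beta arrays, beta 3 at -0.09 included, lay well below all double and alpha arrays. Hyi, a putative hydroxypyruvate isomerase, had the same pattern, with 1.86, 1.79 and 1.94 on the double, -0.16 and -0.49 on the beta and 1.70, 1.63 and 1.13 on the alpha arrays. The interferon-induced GTPase gene Iigp1 stood at 0.90, 1.39 and 0.75 against -1.25 and -1.26, with a difference of 2.27 (adjusted p = 0.0723). Further differences that missed the threshold were 3.31 for the potassium channel subunit gene Kcne1l, 2.88 for the cardiac transcription factor gene Nkx2-5, 2.02 for Ppp1r9a, which encodes neurabin, and 1.95 for the centrin gene Cetn4. The probes of Nkx2-5 and Cetn4 were dim or undefined on 3 of 11 arrays. Cetn4 stood at 1.84 on beta 3, above every double array, and with it the difference was 1.16.

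Nuclear genes of oxidative phosphorylation were lower together on the double arrays. Of 84 listed genes 83 had a probe, 80 were tested and 0 passed the adjusted threshold in either direction, while 35 were lower and 0 higher at an unadjusted p under 0.05. All 3 double arrays lay below both beta arrays for 48 of the 80, which is 60%, where 11.1% of all 12711 genes measured on the 5 arrays did so. They lay above for 2 of 80, or 2.50%, against 10.2% of all genes. The 2 were Cox17, a copper chaperone of complex IV, with a difference of 1.07, and Atpif1, the inhibitor of ATP synthase, with 0.39; both were singled out after their values were seen. The median difference of the list was -0.68, where that of all genes was -0.03. By array, the list's median stood at -0.96, -0.76 and -0.90 on the double and at -0.07 and -0.29 on the beta arrays.

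This shift of the list depends on which arrays stand for each genotype. On beta 3 the list's median was -1.84, below every double array. Over kept probes never dim or undefined, the centred median of beta 3 was -1.14, against -0.05 to 0.27 on the 5 arrays compared. Over probes dim or undefined on 1, 2 and 3 arrays it was 0.14, 1.16 and 1.63. The slow-fibre median of beta 3 was -1.80 and its mitochondrial ribosome median -2.18. How far the list's -1.84 goes with brightness was not tested. With beta 3 kept the median difference was -0.16, and 7 of 80 genes, or 8.75%, had all double arrays below all beta arrays, against 4.38% of all genes. The 7 were Ndufa11, Ndufv2, Sdhc, Cox6b1, Cox7c, Atp5b and Atp5pb, which were picked out after their values were seen. With the sign of beta 3 turned the median was -1.38, and with that of double 3 turned it was -0.13. The route through the alpha and direct arrays gave -0.073; there the list's medians were -0.12, -0.47 and -0.12 on the alpha and -0.23, -0.10 and 0.02 on the direct arrays. Grouped by channel label the median was -0.44, with 2 of 80 genes below against 2.21% of all genes. Leaving out beta 2 gave -0.90.

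**Figure D2:**
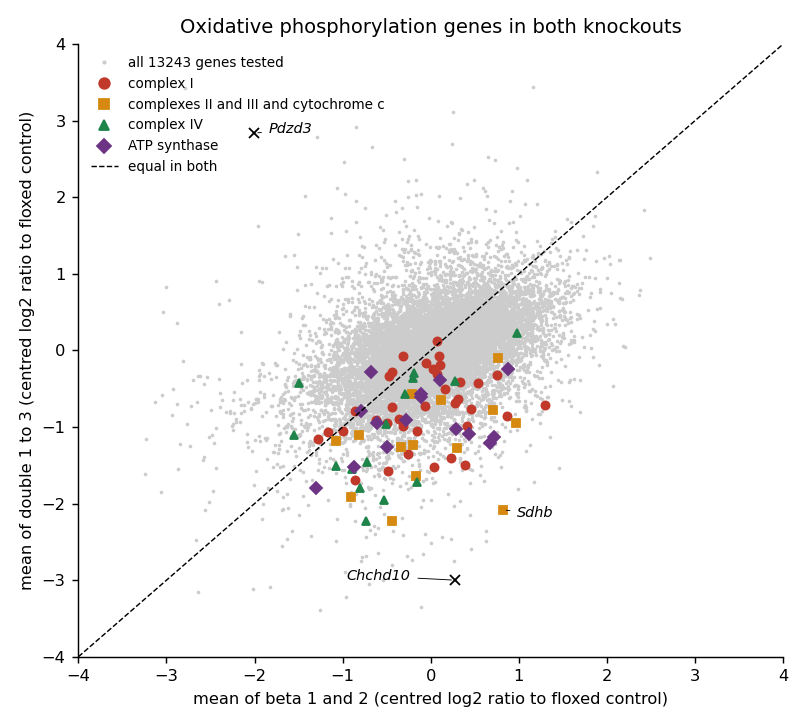
Mean centred log2 ratio on double 1 to 3 (vertical axis) against that on beta 1 and 2 (horizontal axis) for all 13243 genes tested, of which 1 lies beyond the axes, with the oxidative phosphorylation genes coloured by complex and the dashed line marking equal values. Most coloured points, 69 of 80, lie below the line, and Chchd10 and Pdzd3, the 2 genes past the threshold, are crosses.

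Each of the 4 lists had a negative median difference, which moved with the arrays in doubt. Their counts without overlap stand against 11.1% of all genes lower and 10.2% higher. With beta 3 kept the medians were -0.0098 for complex I, -0.43 for complexes II and III and cytochrome c, -0.20 for complex IV and -0.054 for ATP synthase. With double 3 turned they were -0.061, -0.21, -0.0064 and -0.14. Genes with all double arrays below all 3 beta arrays numbered 2 of 36, 1 of 14, 2 of 15 and 2 of 15 in the same order. Of all genes, 4.38% did so. In complex I, which takes electrons from NADH, 22 of 36 genes were lower on every double array than on both beta arrays and 0 were higher, with a median difference of -0.66. Ndufv1, the subunit that carries the NADH site, stood at -1.09, -1.68 and -1.71 on the double and at 0.34 and 0.44 on the beta arrays. The difference of -1.88 (SE 0.31) had a limma adjusted p of 0.0979, from 0.0042 to 1 over the alternatives. Beta 3 stood at -2.14, below every double array, and with it the difference was -1.04. The 7 complex I genes with a difference above 0 reached at most 0.24.

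In complexes II and III and cytochrome c, which pass electrons from succinate and ubiquinol, 11 of 14 genes were lower without overlap and 0 higher. Their median difference was -1.03, and 14 of 14 differences were negative; with beta 3 kept 11 of the 14 were, and with double 3 turned also 11. Sdhc, a membrane anchor of succinate dehydrogenase, stood at -0.28, -1.32 and -1.25 against 1.10 and 0.83, with beta 3 at -0.07. Its difference was -1.91 (SE 0.37, limma adjusted p = 0.149). Cyc1, the cytochrome c1 gene, stood at -0.94, -1.42 and -1.46 against 0.42 and 0.18. Beta 3, at -1.82, lay below every double array of Cyc1, and its difference of -1.57 was -0.87 with that array. Sdhb and Cycs were chosen after their values were seen: the iron-sulfur subunit gene Sdhb stood at -1.12, -1.87 and -3.26 against 1.45 and 0.18, a wide spread within each group, and the cytochrome c gene Cycs at -1.88, -2.17 and -2.64 against 0.01 and -0.88. Beta 3 stood at -1.42 for Sdhb and at -2.69 for Cycs, whose difference moved from -1.79 to -1.04 with it.

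Complex IV, cytochrome c oxidase, had 6 of 15 genes lower without overlap and 1 higher, with a median difference of -0.65. This list was already below the control on the beta arrays, with medians of -0.54 and -0.70, against -1.19, -0.98 and -0.94 on the double arrays. Cox4i1, a regulatory subunit, stood at -1.74, -1.45 and -1.95 against -0.25 and -0.07. On beta 3 it stood at -2.91, below every double array, and with that array its difference of -1.55 was -0.64. Cox7c stood at -2.31, -2.12 and -2.23 against -0.59 and -0.87. Cox7c lay below every beta array, with beta 3 at -1.82, and its difference was -1.49 (SE 0.29, limma adjusted p = 0.149).

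Of the ATP synthase genes, 9 of 15 were lower without overlap and 1 higher, with a median difference of -0.62. Atp5d, the delta subunit of the F1 part, stood at -0.70, -1.41 and -1.27 against 0.71 and 0.72. The difference of -1.85 (SE 0.34) had a limma adjusted p of 0.143, from 0.0081 to 1 over the alternatives. Beta 3 stood at -1.64, below every double array, and with it the difference was -1.06. Atp5g1, which encodes the c subunit of the rotor, stood at -1.02, -0.98 and -1.62 against 0.96 and 0.39. Its value on beta 3, -1.64, was again the lowest, and the difference of -1.88 was -1.11 with it.

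**Figure D3:**
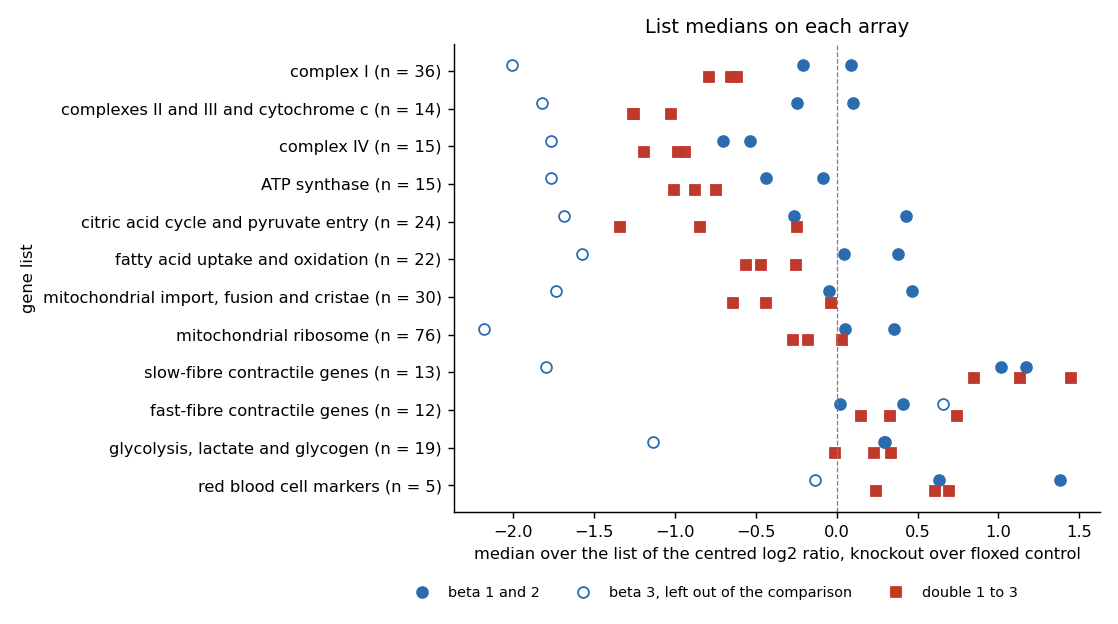
Median centred log2 ratio of 12 gene lists (horizontal axis) on each array, with the number of genes tested beside each name. Filled circles are beta 1 and 2, open circles beta 3 and squares double 1 to 3. Double arrays lie below beta 1 and 2 for the 4 respiratory lists, fatty acid oxidation and the mitochondrial ribosome, beta 3 lies further down for these lists, and slow-fibre and fast-fibre lists overlap.

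Fuel oxidation upstream of the chain had similar values, and its counts too stand against 11.1% of all genes lower and 10.2% higher. Of 24 genes of the citric acid cycle and pyruvate entry, 12 were lower without overlap, 0 were higher, and the median difference was -0.96, but the list's medians overlapped between arrays, at -0.24, -0.84 and -1.34 on the double and 0.43 and -0.26 on the beta arrays. Got1 and Got2 encode the cytosolic and mitochondrial aspartate aminotransferases of the malate-aspartate shuttle. Got1 stood at -0.20, -1.18 and -1.29 against 1.45 and 0.85, and Got2 at -0.13, -0.86 and -1.39 against 0.87 and 1.29. Both had differences near -2, of -2.04 and -1.87, that missed the threshold (adjusted p = 0.152 and 0.171). Beta 3 stood at -1.58 for Got1 and -0.79 for Got2, and with it the differences were -1.13 and -1.24. With beta 3 kept, 0 of the 24 genes had all double arrays below all beta arrays.

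In fatty acid uptake and oxidation, 11 of 22 genes (50%) were lower without overlap, 0 were higher, and the median difference was -0.71. With beta 3 kept, 1 of 21 genes had all double arrays below all beta arrays, against 4.38% of all genes. Acadvl, which starts the mitochondrial oxidation of very long acyl chains, stood at -0.71, -1.28 and -1.44 on the double and at 0.40 and 0.03 on the beta arrays. Its difference was -1.35 (SE 0.32, limma adjusted p = 0.253), but beta 3 stood at -3.64, far below the double arrays, and with it the difference was -0.072. Fabp3, the muscle carrier of fatty acids, stood at -0.35, -0.27 and -0.31 against 1.15 and 0.68. Its beta 1 and 2 were above the control and its double arrays below it, but beta 3 stood at -1.64, lower than every double array, and with it the difference of -1.23 was -0.38.

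Further mitochondrial lists were described by the same counts, to be read against 11.1% of all genes lower and 10.2% higher. Of 75 genes of the mitochondrial ribosome measured on all 5 arrays, 18 (24%) were lower without overlap and 5 higher, with a median difference of -0.36; Mrpl12 and Mrps23 had differences of -1.56 and -1.45, which were -0.35 and -0.89 with beta 3. Of 30 genes of import, fusion and cristae, 12 were lower and 2 higher, with a median of -0.67, and Chchd10 was the 1 member past the threshold. With beta 3 kept the medians of these lists turned to 0.46 and 0.21. Carriers of the inner membrane had 7 of 18 lower and 1 higher, with a median of -0.18; the phosphate carrier Slc25a3 had a difference of -1.79 and the ADP/ATP carrier Slc25a4 of -1.59, which was -0.86 with beta 3. Antioxidant enzymes had 3 of 16 (18.8%) lower and 1 higher, with 9 negative and 7 positive differences. Their median of -0.27 turned to 0.54 with beta 3 kept. Among the lower ones was Sod2, the mitochondrial superoxide dismutase, at -1.15, -1.45 and -1.54 against 0.28 and -0.24. Another was Prdx2, with a difference of -1.49. Sod2 stood at -3.03 on beta 3, and with that array its difference of -1.40 was -0.38.

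**Figure D4:**
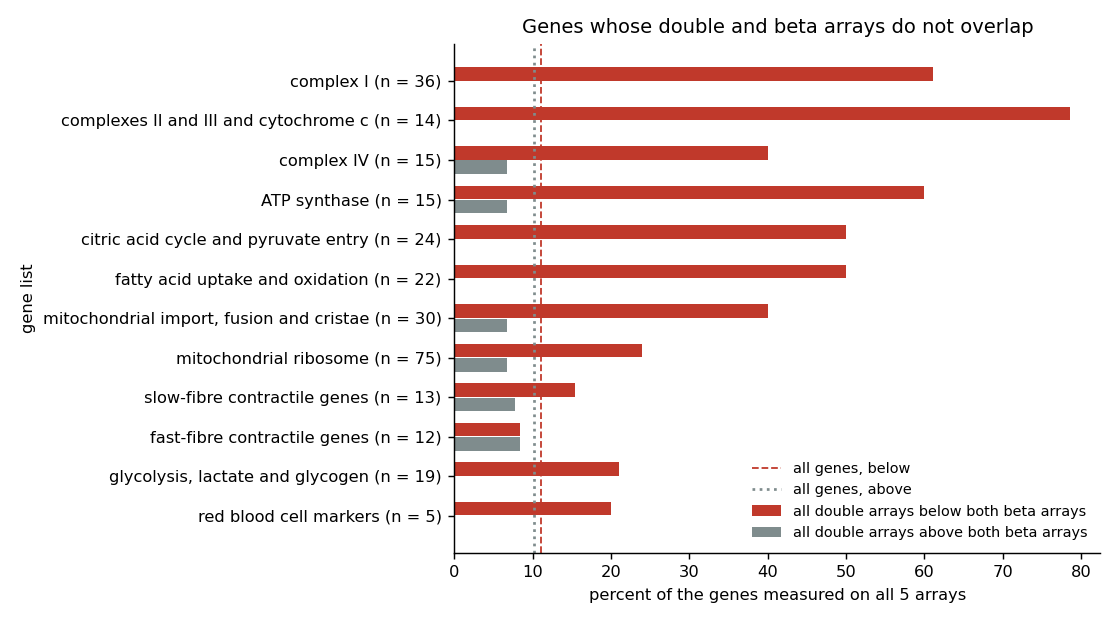
Percent of each list's genes (horizontal axis, from 0) whose 3 double arrays all lie below (red bars) or all above (grey bars) both beta arrays, with the number of genes measured on the 5 arrays beside each name. Lines mark the shares of all genes, 11.1% below and 10.2% above. The respiratory lists reach 40% to 78.6% below, and the fibre lists stay within 7.69% to 15.4%.

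The genes most like Chchd10 were from the oxidative phosphorylation lists. By Pearson correlation over the 11 arrays, the 5 genes with the most similar pattern were Ndufa8 (r = 0.992), Cox4i1 (0.943), Atp5b (0.937), Ndufa9 (0.932) and Atp5a1 (0.931). All but the direct arrays share the same kind of reference RNA. The double and direct arrays carry double knockout RNA by title, and Chchd10 was low on each of them. The coefficients are therefore descriptions. Atp5b and Atp5a1, the beta and alpha subunits of the F1 part, had differences of -1.52 and -1.31, and Ndufa9 had -1.07. These were -1.64, -0.50 and -0.40 with beta 3 kept.

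The coactivators' family and partners were described from their own lists. Of 6 genes of the PGC-1 family and corepressors, 4 (66.7%) lay lower without overlap, against 11.1% of all genes. They were the targeted Ppargc1a and Ppargc1b, Lpin1, and Perm1, a muscle regulator induced by PGC-1 and the estrogen-related receptors. The list's median difference of -0.53 was 0.0081 with beta 3 kept. Perm1 stood at -0.53, -0.52 and -0.29 against 0.12 and 0.29. On beta 3 Perm1 stood at -3.64, and with that array its difference turned from -0.65 to 0.63. Of 16 transcription factor partners, 6 (37.5%) lay lower and 0 higher. Their median difference of -0.20 over 17 tested was 0.070 with beta 3 kept. Esrra, the estrogen-related receptor alpha gene, stood at -1.60, -0.52 and -0.26 against 0.36 and 0.03, but its 2 probes disagreed, with differences of 0.05 and -2.01. Mef2a stood at -0.37, -0.27 and 0.37 against 0.85 and 0.61, and its 3 probes gave -2.03, -0.26 and -0.17.

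Contractile genes were near the shares of all genes by counts without overlap. The fast-fibre median on double 2 was 0.15, the value that Myh4 has there. How far such a value follows expression was not tested. Of 13 slow-fibre genes 2 were lower and 1 higher without overlap, with a median difference of 0.07, and of 12 fast-fibre genes 1 was lower and 1 higher, with 0.14. Slow-fibre medians were above the control on the 5 arrays compared, at 1.45, 1.13 and 0.85 on the double and 1.02 and 1.17 on the beta arrays, but at -1.80 on beta 3, with which the median difference was 0.89. With double 3 turned the medians of both fibre lists turned, to -0.47 and -0.35. Myh7, the slow myosin heavy chain, was the slow-fibre gene above: it stood at 1.96, 2.11 and 1.39 on the double and at 0.70 and 0.75 on the beta arrays. The difference of 1.10 (SE 0.31) missed the threshold (limma adjusted p = 0.356, from 0.0286 to 1 over the alternatives), and beta 3 stood at -2.18, with which the difference was 2.06. Actn2, a Z-disc protein, had a difference of -0.71, which turned to 0.091 with beta 3. Myh4, the fastest myosin, had a difference of 1.45, with double 1 to 3 at -0.18, 0.15 and 2.43. Its 1 kept probe was counted as dim or undefined on 3 of 11 arrays. Probes of Myh2 and Slc25a4 left out by that rule share its value on double 2, where the ratio equals the array's scaling factor. Without signals, dim and bright probes cannot be told apart there. The difference of Myh4 was 0.89 with beta 3 kept, and with double 3 turned it turned to -0.17. The embryonic myosin gene Myh3, a sign of regenerating fibres, stood at -0.24, 0.23 and 0.74 against -0.89 and -0.81, in a list of 10 regeneration genes with 1 lower and 2 higher. Beta 3, at 1.88, lay above every double array, and with it the Myh3 difference of 1.09 was 0.18.

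The next lists are small, and their counts are to be read against the 11.1% of all genes that lay below and the 10.2% that lay above without overlap. Glycolysis, lactate and glycogen genes had 4 of 19 lower and 0 higher, with a median difference of -0.11. That median turned to 0.23 with beta 3 kept and was -0.35 with double 3 turned. Of 11 genes of glucose uptake and AMP kinase measured on all 5 arrays, 3 were lower and 2 higher. Prkaa2, a catalytic subunit of AMP kinase, stood at 0.54, -0.01 and -0.68 against 1.21 and 1.46, and the insulin receptor substrate gene Irs1 at -0.58, 1.04 and 0.52 against -1.35 and -0.66, with 1.55, 0.05 and 2.38 for its 3 probes. Among ATF4 and stress genes, 2 of 17 (11.8%) were lower and 1 (5.88%) higher, near the shares of all genes. Atf4 itself stood at 0.23, 0.38 and -0.22 against 0.94 and 0.72, with beta 3 at 1.10 and the alpha arrays at 1.61, 1.56 and 1.77, and the chaperonin gene Hspe1 had a difference of 0.83. Of 13 atrophy and autophagy genes 0 were lower and 1 (7.69%) was higher, the lysosomal protease gene Ctsl, with a difference of 1.11. Of 7 angiogenic factors 2 were lower and 1 higher, with -0.85 for Vegfb and 0.72 for Fgf1. Of 7 secreted factors 1 (14.3%), Fndc5, was lower. The difference of Ctsl was 1.99 with beta 3 kept.

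Markers of the tissue and of other cells were read on the same arrays. Their counts too stand against 11.1% of all genes below and 10.2% above. A ratio gives no level, so the presence of muscle RNA itself was not tested. Of 9 skeletal muscle markers 2 were lower without overlap, with a median difference of -0.04; Mb, the myoglobin gene, stood at 0.16, -0.40 and -0.76 against 1.36 and 1.05, and its difference of -1.54 was -0.95 with beta 3, at -0.55. Red blood cell markers had negative differences for 5 of 5 genes, with a median difference of -0.76 and medians of 0.70, 0.25 and 0.61 on the double and 0.63 and 1.38 on the beta arrays; Hbb-bt alone was without overlap, with 1.04, 0.25 and 0.89 against 1.20 and 1.54, and with beta 3 kept the list's median was -0.28. Endothelial markers had a median of -0.11, with 5 negative and 2 positive differences and 2 of 7 lower without overlap; Cldn5, which had the smallest p of the list, had a difference of -1.40. Macrophage markers had 0 of 7 without overlap and adipocyte markers 2 of 7 higher. Fibroblast and matrix markers had a median of 0.63, with 1 of 8 lower, Col6a1 at -1.57, and 1 higher, Fn1 at 1.41. Nerve markers had 1 of 4 lower. The part of these cells in the differences above was not tested.

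Probe brightness moved with the values too. With all kept probes averaged, genes with a probe never dim or undefined had a median difference of -0.09 and 13.2% below without overlap, against 0.19 and 4.49% for genes whose best probe was dim or undefined on 3 arrays. Of the 80 oxidative phosphorylation genes, 54 were never dim, and with values averaged over such probes alone 34 of these 54 (63%) lay below without overlap, where 12.9% of all genes with such a probe did. Centring within brightness classes left the list's median at -0.63. When the fit was limited to the 6949 genes with such probes, 17 passed the threshold, 13 lower and 4 higher, with Chchd10, Ndufv1, Atp5d, Atp5g1, Sdhc, Got1, Fndc5, Clybl and Esrra among the 13.

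**Figure D5:**
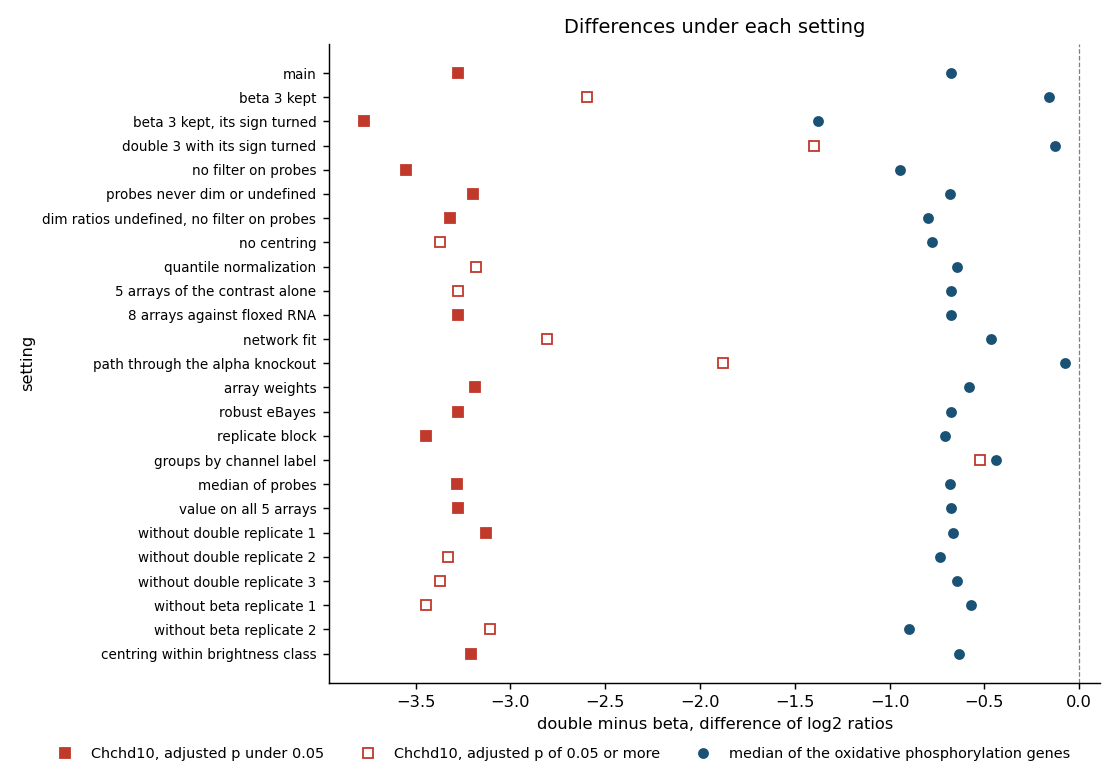
Double minus beta difference on the log2 scale (horizontal axis) of Chchd10 (squares, filled where the adjusted p was under 0.05) and of the median oxidative phosphorylation gene (circles) under 25 settings, the reported one at the top. Both stay below 0 throughout, and the list's median lies nearest to 0, at -0.073, by the route through the alpha knockout.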

How the data were processed

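Gastrocnemius RNA was hybridised to 12 Agilent arrays with 2 dyes each, and 11 arrays entered the fit. The deposited value table, recorded as a score because its unit is not stated, holds 1 linear ratio of Cy5 to Cy3 per probe and array, which the authors multiplied by 1 factor per array, as its values show. The authors also deposited group means of these ratios in a table of higher genes, with a fold of 2 or above per the labels, and a table of lower genes, with 0.7 or below. How signals were read, background-corrected and normalized is not given in the sources used here. No signal accompanies the ratios, so dim probes were recognised from the ratios themselves.

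Values at or below 0 and the repeated maximum of each array were undefined. A ratio was counted as dim where, divided by the array factor, it equalled a fraction with numerator and denominator of at most 10, which can also hit a bright probe. The platform annotation gives 1 gene symbol to 32443 of the 40928 probes, more than 1 to 44 and no symbol to 8441. The 18788 probes with 1 symbol that were dim or undefined on at most 3 of 11 arrays stood for 13288 of 19437 genes. Log2 of the deposited ratios was taken, centred on each array's median gene and averaged over a gene's probes, and 13243 genes could be tested. With limma 3.58.1 in R 4.3.3, lmFit gave each title group a mean, eBayes a shared spread, and the contrast double minus beta 1 and 2 a two-sided p with Benjamini-Hochberg adjustment over all genes. Array number limits the precision, and depth has no meaning here. In simulated data of 13243 genes for this comparison, 74 of 100 genes shifted by -3 and 41 of 100 shifted by 2 on the log2 scale were called, with 9 calls among 13043 unshifted genes. The simulated noise was normal and independent between genes and arrays, while the real arrays correlate with one another. These rates therefore need not hold for the real arrays.

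Named genes were the 4 markers given with the comparison and the 2 targets, the 8 a direction with the smallest p and no overlap, up to 2 a list by p, and the 5 most like Chchd10; of those picked by list, some that overlapped between groups are left out of the text. The comparison, the named genes and the lists were chosen with earlier results of these data known, and lists are described by counts and medians without a test. The alternatives concern the arrays used, the probe filter, centring, the fit, the grouping by channel label and each array left out in turn; those leaving out alpha or direct arrays and the centring within brightness classes were chosen after seeing the data.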

Additional observations from a re-analysis of the deposited data

How the results depend on the processing

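Genes past the threshold numbered 2 as reported; the count was 0 with beta 3 kept, with double 3 turned in sign, after quantile normalization, from the 5 arrays alone, by the route through the alpha knockout and with groups by channel label (unadjusted p under 0.05 for 929, 597, 1456, 646, 886 and 492 genes), 1 without a filter on probes or with dim ratios undefined, 12 in the network fit, 17 with probes never dim and 250 with array weights, which gave double 2 a weight of 5.42 and the other two double arrays 0.35 and 0.36. Leaving out a double, beta, alpha or direct array gave 0 to 8, the highest without direct 3. No centring gave 2 genes, among them Pdzd3 but not Chchd10. The oxidative phosphorylation median was -0.16 with beta 3 kept, -1.38 with its sign turned, -0.13 with double 3 turned, -0.95 without the filter, -0.46 in the network fit, -0.073 through the alpha knockout, -0.44 by channel label and -0.57 to -0.90 with arrays left out. Its genes without overlap on the low side, 48 as reported, numbered 7 (8.75%), 3 (3.75%) and 2 (2.50%) of 80 with beta 3 kept, double 3 turned and channel labels, where 4.38%, 8.94% and 2.21% of all genes did, and 50 to 64 with arrays left out, where 15.3% to 26.9% of all genes did. The cause of these shifts was not tested.

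Of 64 named genes, 41 kept their sign in all alternatives. By channel label the sign was reversed for Ppargc1a (0.68), Ocel1 (-0.16), Iigp1 (-0.74), Clybl (0.67), Mef2a (0.21), Esrra (0.61), Slc25a3 (0.62), Myh7 (-1.11), Irs1 (-0.30), Hspe1 (-0.27), Ctsl (-0.80), Fgf1 (-0.47), Col6a1 (1.14), Fn1 (-0.35), Atp5b (0.17), Atpif1 (-0.10), Atp5pb (0.25) and Ndufa11 (0.18). With beta 3 kept it was reversed for Perm1 (0.63) and Actn2 (0.091), with beta 3 turned for Hspe1 (-0.32), Ctsl (-0.15), Fgf1 (-0.30) and Atpif1 (-0.42), with double 3 turned for Myh4 (-0.17), Atp5pb (0.36) and Cox6b1 (0.25), without the filter for Atpif1 (-0.27), and through the alpha knockout for Hbb-bt (0.18). The double and beta groups share the numbers 1 and 2 alone, whose deviations correlated at 0.43; with the number as a replicate block 2 genes passed, Chchd10 at -3.44 and Pdzd3 at 4.91, and no call changed. Centring moved the median of all genes to -0.13 when left out, against -0.03.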
